A study of Mus musculus with 17 samples.

Results

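GFP+ and GFP–-RPE cells taken from the same part of the eye, the peripheral RPE, were compared. The comparison used the 6 libraries that the labels mark as GFP+ and the 5 that they mark as ctrl periphery, 11 of 17 libraries in all, and left out the 6 libraries of central GFP–-RPE. All cells came from Serpine3GFP/+ mice at 2 months, in which a GFP cassette sits just after the start codon of one Serpine3 allele, so that GFP+ and GFP– cells alike carried one interrupted copy of the gene and no wild-type mouse served as control. Each library was a pool of 10 to 15 cells picked one by one with a micromanipulator after the eyecup had been cut at its middle line, the neural retina removed and the RPE sheets trypsinized. GFP under the microscope was the only mark by which the groups were told apart, the sources used here do not say where along the dorsal to ventral axis the peripheral GFP–-RPE were picked, and peripheral cells are described as ranging from bright to undetectable GFP, so a GFP–-RPE pool may hold cells of very low GFP. Mice are called 1 to 7 here. Mice 1, 2, 4, 5 and 7 gave a library of each group, and mouse 3 gave a GFP+ library only. Both libraries of mouse 1 carry the same 2 animal numbers, which the labels do not explain, and mouse 1 is counted here like any other mouse. Pool size and kit are given here as in the labels, and the study's methods state another pool size and another kit.

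The RPE is a single layer of pigmented epithelium between the photoreceptors and the choroid. It recycles retinoid for the visual pigments, engulfs shed photoreceptor outer segments, absorbs stray light with melanin and forms the outer blood-retina barrier through its tight junctions. SERPINE3 belongs to the serpins, a family best known for blocking proteases. The cells that express it are a minority of the peripheral RPE, and the comparison asks what else differs between them and other peripheral RPE cells.

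Of 10102 genes with enough counts to be tested, 5 were higher in GFP+-RPE (quasi-likelihood fit of edgeR, adjusted p under 0.05), which is 0.0495% of those tested, and 0 were lower, which is 0%. The 5 were Htr3a, Vim, Upk3b, Aplp1 and Bcan. Between them they make a subunit of a ligand-gated ion channel, an intermediate filament, a urothelial membrane protein, a relative of the amyloid precursor protein and a proteoglycan of the extracellular matrix. Htr3a, Vim, Upk3b and Aplp1 had been proposed as markers of the GFP+ state from earlier results of these same libraries, so their calls are no independent evidence. Bcan had not been so proposed. The promoters of 4 of the 5 are in the RefSeq table for GRCm38.p6. They are shown because the genes were called in the same direction, and shared control was not tested. Each run spans 250 bases before to 50 bases after the transcription start, 5′ to 3′ on the gene's own strand. Vim lies at chr2:13574061-13574360 (plus strand), Upk3b at chr5:136038246-136038545 (plus strand), Aplp1 at chr7:30445533-30445832 (minus strand) and Bcan at chr3:88000307-88000606 (minus strand). Capitals mark every match, on either strand, to 6 short motifs, namely TATAAA (the TATA box), CCAAT (the CCAAT box), GGGCGG (a GC box), CACGTG and CATGTG (E-boxes, the kind that MITF binds) and TAATCC (an OTX2-like site), and none of the 8 matches overlaps another. The windows are set on the RefSeq start, which is the start of the GENCODE span given with the gene below for Upk3b, lies 384 bases inside that span for Vim, and lies upstream of it, by 47 and 126 bases, for Aplp1 and Bcan. Positions of motifs are counted from the RefSeq start.
Vim: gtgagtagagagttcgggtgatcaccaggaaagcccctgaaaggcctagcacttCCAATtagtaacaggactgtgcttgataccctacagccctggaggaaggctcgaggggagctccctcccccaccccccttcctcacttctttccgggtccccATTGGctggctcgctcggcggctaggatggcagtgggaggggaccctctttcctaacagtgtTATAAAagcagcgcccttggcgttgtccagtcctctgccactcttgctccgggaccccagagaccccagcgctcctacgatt
Upk3b: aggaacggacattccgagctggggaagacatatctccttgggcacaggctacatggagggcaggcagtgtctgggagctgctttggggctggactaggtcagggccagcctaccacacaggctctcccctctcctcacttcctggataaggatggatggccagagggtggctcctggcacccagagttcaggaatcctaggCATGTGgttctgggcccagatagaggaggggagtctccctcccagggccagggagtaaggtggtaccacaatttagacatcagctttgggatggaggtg
Aplp1: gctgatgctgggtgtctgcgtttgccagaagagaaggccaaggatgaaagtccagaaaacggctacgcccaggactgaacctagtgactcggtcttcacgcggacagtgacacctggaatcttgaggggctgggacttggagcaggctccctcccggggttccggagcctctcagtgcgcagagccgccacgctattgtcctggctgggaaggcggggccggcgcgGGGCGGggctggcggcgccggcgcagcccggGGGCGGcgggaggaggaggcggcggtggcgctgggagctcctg
Bcan: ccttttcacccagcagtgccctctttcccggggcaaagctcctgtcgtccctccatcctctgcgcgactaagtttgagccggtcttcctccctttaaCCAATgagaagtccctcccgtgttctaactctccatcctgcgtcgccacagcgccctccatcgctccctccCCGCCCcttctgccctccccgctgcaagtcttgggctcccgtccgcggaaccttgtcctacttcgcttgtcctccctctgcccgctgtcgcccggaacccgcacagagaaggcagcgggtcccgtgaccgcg

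The 4 promoters shared no motif that all of them held. The Vim window holds TATAAA at position -32 from the start and CCAAT at -196 and, on the other strand, at -94. The Bcan window holds CCAAT at -153 and GGGCGG on the other strand at -82, whereas the Aplp1 window holds GGGCGG at -24 and again at 8 bases into the transcript. Upk3b has neither, and has CATGTG, one form of the E-box, at -49. Among the 32851 promoters of this length in the table, 13.6% hold TATAAA, 37.4% CCAAT, 35.7% GGGCGG, 7.15% CACGTG, 14.2% CATGTG and 7.06% TAATCC. The matches are letters in a window and were not tested as sites.

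Library totals were similar in the groups, from 10802130 to 22467079 counts in GFP+-RPE and from 11474454 to 19625206 in peripheral GFP–-RPE (p = 0.541 by exact permutation, two-sided, or 0.722 once adjusted over 4 library measures). Genes with at least 10 counts numbered 9507 ± 408 (SD, n = 6) and 9411 ± 1079 (SD, n = 5, exact permutation p = 0.835). The 50 most abundant genes took a smaller share in GFP+-RPE, 39.0% ± 2.58 (SD, n = 6) against 46.6% ± 5.30 (SD, n = 5, exact permutation p = 0.0173, adjusted p = 0.0346). The GFP– shares were highest in mice 5 and 7, at 53.0% and 50.6%, and this test was not run without them. In mice 1, 2 and 4 the GFP– shares were 39.7%, 44.7% and 44.8%, against 35.5% to 43.1% in GFP+-RPE. This measure is not independent of the mitochondrial share given below, because mitochondrially encoded genes such as mt-Co1 are among the most abundant. The peripheral GFP– libraries of mice 5 and 7 stood apart from the other 9 on the first and second principal components, which hold 18.9% and 16.8% of the variance, and their mean correlations with the other libraries, 0.661 and 0.691, were the lowest of the 11. Results for single genes and for the mitochondrial share are given without them where that ends a call. No 2 libraries agreed closely enough to be one library deposited more than once (highest correlation 0.908).

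Serpine3 (ENSMUSG00000091155.1, chromosome 14:62663667-62692243, plus strand, GRCm38) followed the labels in every library. Its counts in GFP+-RPE were 576, 371, 175, 154, 107 and 130 in mice 1, 2, 3, 4, 5 and 7, and in peripheral GFP–-RPE 5, 0, 0, 0 and 0 in mice 1, 2, 4, 5 and 7. In CPM, counts scaled to library size with TMM, it ran from 6.92 to 24.5 against 0 to 0.311. The cells were picked on a reporter driven by this locus, so the difference is a check of the picking. The gene was not called by edgeR (adjusted p = 0.255, two-sided exact permutation p = 0.00433, the smallest that 6 against 5 libraries allow), while DESeq2 gave an adjusted p of 1.3e-10. Exons of Ints6 overlap Serpine3 on the other strand, and the use of strand in the counting is not given in the sources used here.

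**Figure D1:**
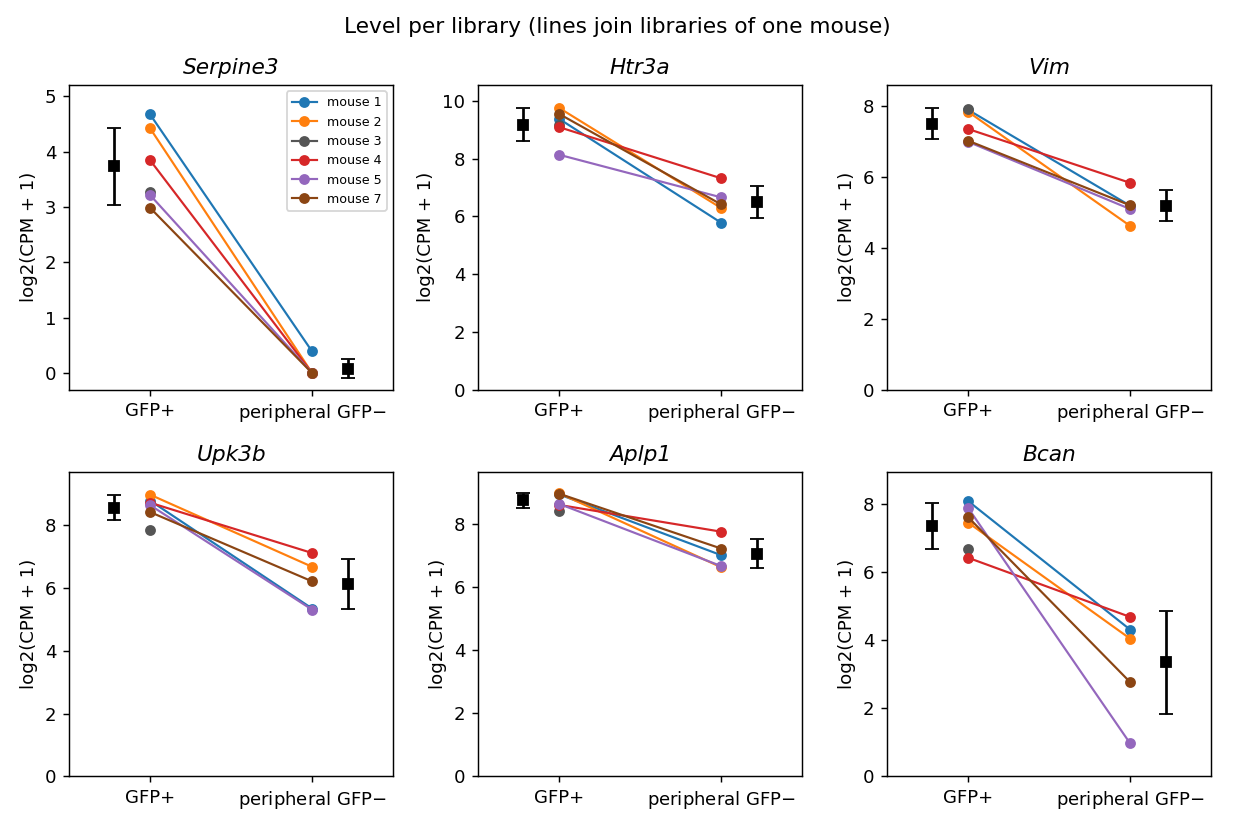
Expression of Serpine3 and the 5 called genes, as log2(CPM + 1) on the vertical axis, in GFP+ and peripheral GFP– libraries; points are libraries, lines join libraries of one mouse, and black squares with bars give the mean and SD of 6 and 5 libraries. In every panel each GFP+ point lies above each peripheral GFP– point, and each line slopes down from GFP+ to peripheral GFP–.

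Htr3a (ENSMUSG00000032269.8, chromosome 9:48899213-48911099, minus strand) encodes the A subunit of the 5-HT3 receptor, a cation channel opened by serotonin. In GFP+-RPE it stood at 663, 862, 575, 543, 280 and 747 CPM in mice 1, 2, 3, 4, 5 and 7. In peripheral GFP–-RPE it stood at 53.9, 77.2, 159, 99.95 and 84.2 CPM in mice 1, 2, 4, 5 and 7. The lowest GFP+ library, that of mouse 5, was above the highest GFP– library, that of mouse 4, and the GFP+ library was higher in 5 of 5 mice. The fitted difference was 6.39-fold (log2 fold change 2.68, SE 0.32, edgeR adjusted p = 0.00313). Htr3b, which encodes the B subunit, had at most 6 counts in any library and was not tested. Fewer cells that express a gene and less of its RNA in each cell cannot be told apart in pools such as these.

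Vim (ENSMUSG00000026728.9, chromosome 2:13573927-13582826, plus strand) encodes vimentin, the intermediate filament protein of mesenchymal and many dedifferentiating cells. GFP+-RPE held 236, 227, 241, 162, 126 and 128 CPM in mice 1, 2, 3, 4, 5 and 7, and peripheral GFP–-RPE 35.3, 23.5, 55.8, 33.1 and 35.6 CPM in mice 1, 2, 4, 5 and 7. No GFP– library came near the GFP+ range, and the fitted difference was 5.03-fold (log2 fold change 2.33, SE 0.30, edgeR adjusted p = 0.00392).

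Upk3b (ENSMUSG00000042985.7, chromosome 5:136038496-136046487, plus strand) encodes a uroplakin, one of the membrane proteins of the urothelial surface, and is also known from mesothelium. Its levels were 437, 499, 226, 418, 396 and 340 CPM in the GFP+ libraries of mice 1, 2, 3, 4, 5 and 7. They were 39.6, 100.9, 137, 38.6 and 72.9 CPM in the peripheral GFP– libraries of mice 1, 2, 4, 5 and 7. Again the groups did not overlap, with a 4.94-fold difference (log2 fold change 2.31, SE 0.34, edgeR adjusted p = 0.00970).

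Aplp1 (ENSMUSG00000006651.8, chromosome 7:30434982-30445535, minus strand) encodes amyloid precursor-like protein 1, a membrane protein best known from neurons. It was the most even of the 5 within the GFP+ group, at 484, 497, 335, 384, 393 and 492 CPM in mice 1, 2, 3, 4, 5 and 7. Peripheral GFP–-RPE held 127, 97.2, 213, 99.8 and 147 CPM in mice 1, 2, 4, 5 and 7. The difference was the smallest of the called genes at 3.12-fold (log2 fold change 1.64, SE 0.23, edgeR adjusted p = 0.00970).

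Bcan (ENSMUSG00000004892.13, chromosome 3:87987531-88000230, minus strand) encodes brevican, a chondroitin sulphate proteoglycan of the brain matrix. It had 273, 176, 102, 85.4, 237 and 196 CPM in GFP+-RPE of mice 1, 2, 3, 4, 5 and 7 and 18.9, 15.6, 24.8, 0.959 and 5.83 CPM in peripheral GFP–-RPE of mice 1, 2, 4, 5 and 7. The groups did not overlap and the fitted difference was 13.4-fold (log2 fold change 3.75, SE 0.61, edgeR adjusted p = 0.0312), the largest of the 5 and the least precise. The GFP– values spread widely, with the 2 lowest in mice 5 and 7, whose libraries stood apart.

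The 5 differences were present in 5 of 5 mice and in both runs of animal numbers, mice 1 to 3 and mice 4 to 7. With ranges that do not overlap, the same direction in every mouse and run had to follow, so it adds no support. The mean CPM ratio was 10.7 in the first run and 4.58 in the second for Htr3a, 7.97 and 3.34 for Vim, 5.52 and 4.64 for Upk3b, 3.91 and 2.76 for Aplp1, and 10.6 and 16.4 for Bcan. For no gene did the difference between GFP+ and GFP–-RPE change with the run at an adjusted p under 0.05 (edgeR interaction term). At an unadjusted p under 0.05 it did for 333 of 10102 genes tested. With the mouse as a block over the 5 mice that gave both groups, the sizes held and the calls were lost: the edgeR adjusted p was 0.0798 for Htr3a, Upk3b and Aplp1, 0.100 for Vim and 0.234 for Bcan, at log2 fold changes of 2.69, 2.57, 1.75, 2.24 and 4.23. DESeq2 with the same block called all 5, among 248 genes (2.13%) higher and 275 (2.37%) lower. Without the peripheral GFP– libraries of mice 5 and 7, Bcan alone remained called (adjusted p = 0.0370), with Htr3a and Vim at 0.0786, Aplp1 at 0.100 and Upk3b at 0.113.

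**Figure D2:**
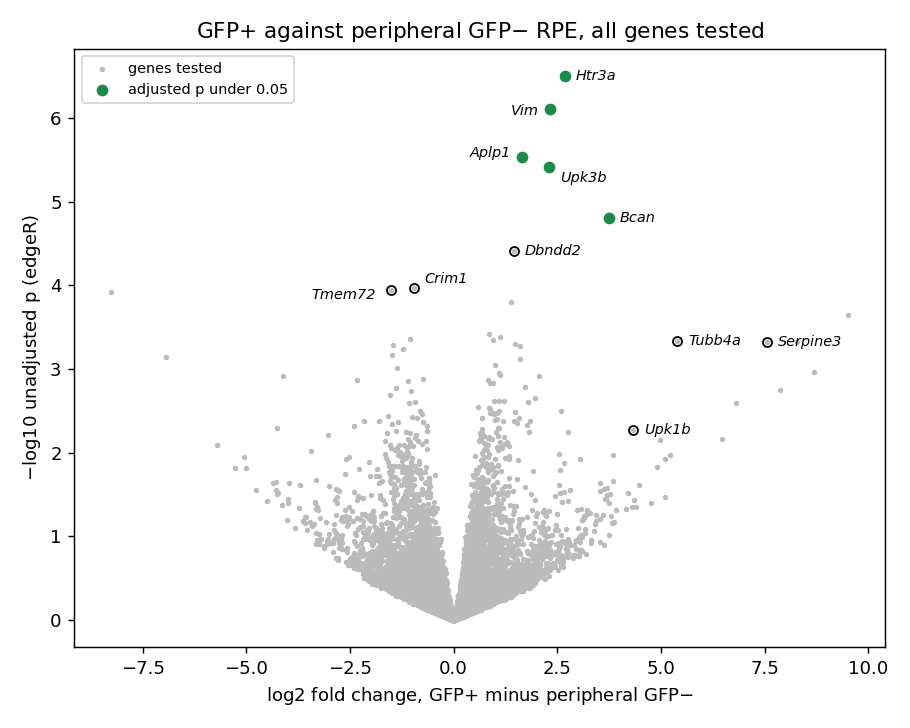
Each of the 10102 genes tested, by log2 fold change of GFP+ minus peripheral GFP–-RPE on the horizontal axis and -log10 of the unadjusted edgeR p on the vertical axis. The 5 called genes, in green, all lie on the GFP+ side, and open circles mark named genes that were not called.

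Beyond the called genes the evidence thinned quickly. In all, 278 genes (2.75%) were higher and 286 (2.83%) lower at an unadjusted p under 0.05, about as many in one direction as in the other. Ranges of CPM lay fully apart for 74 genes (0.733%) higher and 58 (0.574%) lower in GFP+-RPE, and 564 (5.58%) were higher and 580 (5.74%) lower in all 5 mice. The median log2 fold change over all genes tested was 0.01. The common biological coefficient of variation across the 11 libraries was 1.07.

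Among genes higher in GFP+-RPE with ranges apart, Dbndd2, a dysbindin-domain protein, came next after the called genes. It had 241 to 512 CPM in GFP+-RPE and 88.1 to 187 CPM in peripheral GFP–-RPE (log2 fold change 1.45, SE 0.26, edgeR adjusted p = 0.0653). Cryab, a small heat shock chaperone, had 773 to 1273 CPM against 477 to 696 CPM, and exons of Hspb2 overlap it on the other strand. Vamp5, a SNARE protein, had 148 to 222 CPM against 61.2 to 145 CPM. Rnaset2a, a ribonuclease with a near-identical copy that could share its reads, had 212 to 315 CPM against 106 to 197 CPM. Tubb4a, a beta-tubulin, had 92.4, 76.0, 86.5, 75.2, 28.0 and 173 CPM in GFP+-RPE of mice 1, 2, 3, 4, 5 and 7. Its levels in peripheral GFP–-RPE were 0, 0.683, 9.58, 0 and 0.205 CPM in mice 1, 2, 4, 5 and 7. None of Cryab, Vamp5, Rnaset2a and Tubb4a passed the test (edgeR adjusted p = 0.255 for each), whereas DESeq2 called each of them, with adjusted p from 0.000533 to 0.00106.

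No gene passed the test in the other direction with edgeR, while DESeq2 called 66 (0.562%) lower beside 74 (0.63%) higher. Crim1, a membrane protein that binds bone morphogenetic proteins and a member of the RPE identity list, had the smallest p of the genes lower in GFP+-RPE with ranges apart. It had 413, 579, 681, 460, 636 and 444 CPM in GFP+-RPE of mice 1, 2, 3, 4, 5 and 7 and 1018, 996, 922, 1217 and 954 CPM in peripheral GFP–-RPE of mice 1, 2, 4, 5 and 7. The groups did not overlap, yet the test was not passed (log2 fold change -0.96, SE 0.19, edgeR adjusted p = 0.134), while DESeq2 called the gene (adjusted p = 7.47e-05), and exons of Fez2 overlap it on the other strand. Tmem72, a transmembrane protein, had 34.2 to 109 CPM against 126 to 295 CPM (edgeR adjusted p = 0.134). Pon1, a paraoxonase, had 420 to 826 CPM against 837 to 1845 CPM, and Wfdc2, a secreted protein with whey acidic protein domains, had 38.4 to 70.4 CPM against 72.0 to 144 CPM. Amer1, a regulator of Wnt signalling, Prrc2b, Lrrc58 and Tmcc3 also had ranges apart, with log2 fold changes of -1.23, -1.49, -0.73 and -2.33 and edgeR adjusted p from 0.263 to 0.388. DESeq2 called Tmem72, Pon1, Wfdc2, Amer1, Prrc2b, Lrrc58 and Tmcc3 lower, with adjusted p from 0.00036 to 0.0166.

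A pair of genes were near absent from GFP+-RPE. Col5a2, a chain of fibrillar collagen V, had 0 counts in 5 of 6 GFP+ libraries and 4 counts in that of mouse 3, against 109, 169, 82, 13 and 38 counts in peripheral GFP–-RPE of mice 1, 2, 4, 5 and 7 (edgeR adjusted p = 0.304). Proser3 had 0 counts in all 6 GFP+ libraries and 14, 39, 19, 32 and 45 counts in peripheral GFP–-RPE, which is at least 12.6-fold lower against a floor of 3 counts per library (edgeR adjusted p = 0.134). DESeq2 called both lower (adjusted p = 9.46e-05 for Col5a2 and 0.00036 for Proser3). Exons of Hspb6 and 1700019A23Rik overlap Proser3 on the other strand. Both levels are low in pools of few cells, where missing a transcript in a whole pool is possible, and that was not tested.

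**Figure D3:**
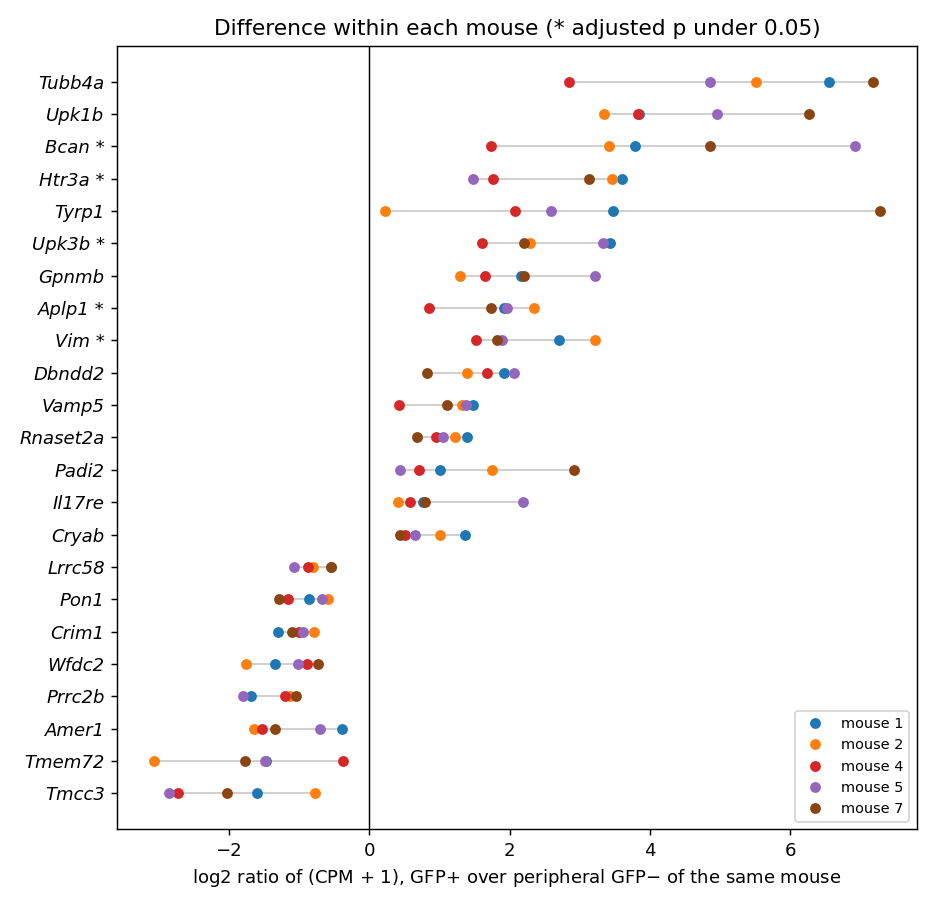
Log2 ratio of (CPM + 1) of the GFP+ library over the peripheral GFP– library of the same mouse, on the horizontal axis. Shown are the 10 genes of smallest p in each direction with ranges apart and the same direction in all 5 mice (Col5a2 and Proser3 left out). Upk1b, Padi2, Il17re, Tyrp1 and Gpnmb are added to these. Each point is 1 of 5 mice and an asterisk marks an adjusted p under 0.05. For genes with ranges apart, all 5 points on one side of 0 follows from how the genes were chosen. The 5 points of Upk1b, Tyrp1 and Gpnmb also lie on one side of 0. Ratios ran from 1.74 to 6.93 for Bcan and from 0.23 to 7.28 for Tyrp1.

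Of 6 uroplakin genes 3 could be tested, and all 3 had positive differences at an unadjusted p under 0.05. Upk3b was called, and the list median, a log2 fold change of 2.31, is the value of Upk3b itself, 1 of the 4 proposed markers. Upk1b, the tetraspanin partner of uroplakin 3 proteins, had 108, 177, 159, 13.2, 29.9 and 76.1 CPM in GFP+-RPE of mice 1, 2, 3, 4, 5 and 7. It had 6.58, 16.4, 0, 0 and 0 CPM in peripheral GFP–-RPE of mice 1, 2, 4, 5 and 7, so that mouse 4's GFP+ library fell within the GFP– range (edgeR adjusted p = 0.610, or 3.43e-08 with DESeq2 and the mouse as a block). Upk3bl, a paralog of Upk3b, had 38.5 to 155 CPM against 28.7 to 89.7 CPM (edgeR adjusted p = 0.850).

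Vim was alone among intermediate filament genes in passing the test. Of 12 such genes 6 were tested, and Krt8, a keratin of simple epithelia, had 131 to 159 CPM in GFP+-RPE and 115 to 250 CPM in peripheral GFP–-RPE (log2 fold change -0.39, SE 0.22). Of 15 genes of epithelial-mesenchymal transition 7 were tested. Besides Vim, Acta2, smooth muscle actin, was at an unadjusted p under 0.05, with 170 to 622 CPM against 119 to 251 CPM (edgeR adjusted p = 0.708). The list median was 0.32, and it ran from -0.22 to 0.97 over the alternatives.

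Genes of RPE identity differed little as a group. Of 24, 22 were tested with a median log2 fold change of 0.10, and 0 were called by edgeR. DESeq2 called Crim1 lower, and with the mouse as a block Crim1, Lrat (adjusted p = 0.0379) and, in the other direction, Efemp1 (0.0453). At an unadjusted p under 0.05 with edgeR, 1 was higher and 3 were lower in GFP+-RPE. Besides Crim1, those were Lrat, which makes retinyl esters (909 to 1692 CPM against 1469.9 to 2069 CPM), Kcnj13, a potassium channel of the apical membrane (1551 to 2207 CPM against 1475 to 4274 CPM), and, in the other direction, Rrh, the RPE opsin peropsin (747 to 998 CPM against 370 to 794 CPM). Rpe65, the retinoid isomerase that defines the tissue, had 3469 to 9632 CPM against 3865 to 10985 CPM (log2 fold change -0.46, SE 0.30), so both groups were RPE by that marker. Of 11 visual cycle genes all 11 were tested, 1 was higher and 1 lower at an unadjusted p under 0.05, and the median was 0.05. Lists of outer segment phagocytosis (11 of 13 tested, median 0.21) and of ion channels and transporters (16 of 19, median 0.10) had 0 genes called by any of these fits and, with edgeR, 1 lower gene each at an unadjusted p under 0.05. For phagocytosis that was Itgav, the alpha v integrin, with 387 to 640 CPM against 464 to 1045 CPM.

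Pigment genes were uneven. All 16 were tested, 12 had positive and 4 negative differences, the median was 0.25, and 0 were called by edgeR. Tyrp1, a melanin-synthesis enzyme, had 248, 163, 286, 144, 79.6 and 584 CPM in GFP+-RPE of mice 1, 2, 3, 4, 5 and 7 and 21.4, 139, 33.4, 12.4 and 2.76 CPM in peripheral GFP–-RPE of mice 1, 2, 4, 5 and 7. The ranges overlapped through mouse 2 of the GFP– group, and the difference missed the threshold (log2 fold change 2.58, SE 0.74, edgeR adjusted p = 0.556). DESeq2 called it higher, the only member so called (adjusted p = 0.0463), and with the mouse as a block it called Tyrp1 (0.00578), Gpnmb (2.3e-08) and Pmel (0.0161). Gpnmb, a melanosomal glycoprotein, had 152 to 860 CPM against 21.5 to 191 CPM (log2 fold change 1.85, SE 0.55). Myrip, which links melanosomes to myosin, had 81.0 to 165 CPM against 133 to 399 CPM. Pmel, which forms the fibrils of early melanosomes, had 0 to 81.4 CPM against 0 to 17.6 CPM (log2 fold change 2.69, SE 1.64, unadjusted p = 0.121), with 3 of 5 mice higher. Mlana had 7.75 to 132 CPM against 0 to 16.8 CPM (unadjusted p = 0.0504).

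Other genes to which attention had been drawn in these cells were less clear. The study named Il17re and Trpm1, like Pmel and Tyrp1, from GFP+ against central GFP–-RPE, a comparison that was not made here. Il17re, an interleukin 17 receptor subunit, had 94.7 to 146 CPM in GFP+-RPE and 29.9 to 88.0 CPM in peripheral GFP–-RPE, ranges that do not overlap (log2 fold change 0.85, SE 0.29, edgeR adjusted p = 0.681). Trpm1, a cation channel, had 8.06 to 52.7 CPM against 0.0872 to 37.1 CPM and was higher in 2 of 5 mice. Padi2, which converts arginine to citrulline, had 301 to 393 CPM against 51.4 to 288 CPM without overlap (edgeR adjusted p = 0.604, or 0.0205 with DESeq2 and the mouse as a block). Lgi1, Mpp3 and Wfikkn2 had log2 fold changes of 1.53, 2.06 and 0.37 (SE 0.59, 1.28 and 0.41). Dpysl2, a cytoskeletal regulator, had 33.7 to 179 CPM against 106 to 227 CPM (log2 fold change -1.03, SE 0.37) and was called lower by DESeq2 with the mouse as a block (adjusted p = 0.0134), and Calcrl, the calcitonin receptor-like receptor, 0.33 to 1.29 CPM against 1.74 to 5.93 CPM (log2 fold change -2.13, SE 1.03). Of the genes that mark the periphery in other species, Nog and Dapl1 had 128 to 446 CPM against 93.5 to 541 CPM, and 246 to 551 CPM against 95.2 to 542 CPM, and neither reached an unadjusted p under 0.05. Of 7 dorsal and 6 ventral patterning genes, 3 and 2 were tested and none reached it. Bmp4, of the dorsal list, had 232 to 356 CPM against 259 to 363 CPM.

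Interferon-response genes had a positive median. Of 34, 21 were tested, 17 had positive and 4 negative differences, and 0 were called by edgeR or by DESeq2 without the block. The median log2 fold change was 0.89, which moved between 0.45 without the GFP+ library of mouse 5 and 1.19 without the peripheral GFP– library of mouse 2. DESeq2 with the mouse as a block called Ifit3 (adjusted p = 0.00448), Ifnar2 (0.0412) and Ddx58 (0.0022) higher. Ifit3, an interferon-induced protein, had 283, 44.3, 186, 84.2, 250.4 and 100.1 CPM in GFP+-RPE of mice 1, 2, 3, 4, 5 and 7 and 31.7, 19.6, 17.8, 99.95 and 55.3 CPM in peripheral GFP–-RPE of mice 1, 2, 4, 5 and 7. The groups overlapped, although the GFP+ library was higher in 5 of 5 mice (log2 fold change 1.77, SE 0.54, edgeR adjusted p = 0.584). Ifi27, an interferon-induced membrane protein, had 157 to 464 CPM against 59.2 to 186 CPM, and Ifnar2, a type I interferon receptor chain, had 49.4 to 78.7 CPM against 21.2 to 62.7 CPM. These 3 were the members at an unadjusted p under 0.05 with edgeR. Of 11 genes of MHC class I presentation 8 were tested with a median of 0.65 and 0 at an unadjusted p under 0.05 with edgeR. H2-K1 had 14.1 to 127 CPM against 2.15 to 56.0 CPM and was called higher by DESeq2 with the mouse as a block (adjusted p = 0.034).

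NRF2, the master regulator of antioxidant genes, is encoded by Nfe2l2, which had 32.0 to 98.0 CPM in GFP+-RPE and 52.5 to 136 CPM in peripheral GFP–-RPE (log2 fold change -0.49, SE 0.34). Of 18 genes of NRF2 and its targets 17 were tested, 0 were called by edgeR and the median was 0.04. Sod2, the mitochondrial superoxide dismutase, had 222 to 287 CPM against 159 to 196 CPM, without overlap (log2 fold change 0.47, SE 0.18), and was called higher by DESeq2 (adjusted p = 0.0377) but not with the mouse as a block. Prdx1, a peroxidase, had 1372 to 1879 CPM against 716 to 1478 CPM. Nqo1, a quinone reductase, had 64.3 to 222 CPM against 119 to 363 CPM, and Sod1, the cytosolic superoxide dismutase, 119 to 216 CPM against 162 to 350 CPM. These 4 had edgeR adjusted p from 0.733 to 0.850.

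Junction genes leaned neither way, with 13 of 16 tested and a median of -0.05. The pair at an unadjusted p under 0.05 were both claudins and both lower: Cldn1 had 201 to 376 CPM against 354 to 643 CPM (log2 fold change -0.80, SE 0.23), and Cldn19, a barrier claudin of the RPE, 13.1 to 85.1 CPM against 69.3 to 184 CPM (log2 fold change -1.27, SE 0.44). Neither was called by edgeR, and DESeq2 with the mouse as a block called Cldn19 (adjusted p = 0.0202). Ionotropic glutamate receptors were at low levels, with 5 of 16 tested, all 5 differences negative, a median of -1.10 and 0 at an unadjusted p under 0.05. Retinoic acid genes (5 of 15 tested, median -0.27) and cell cycle genes (15 of 23, median 0.13) had none at that threshold with edgeR, although DESeq2 with the mouse as a block called Ccnd2 of the cell cycle list lower (adjusted p = 0.00455), and of 12 caspase-1 inflammasome genes 1 was tested and was not called by edgeR or DESeq2. Of 18 immediate early and dissociation genes 5 were tested, and Hspa1a, a heat shock protein, was at an unadjusted p under 0.05 with at most 25.6 CPM in any library.

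**Figure D4:**
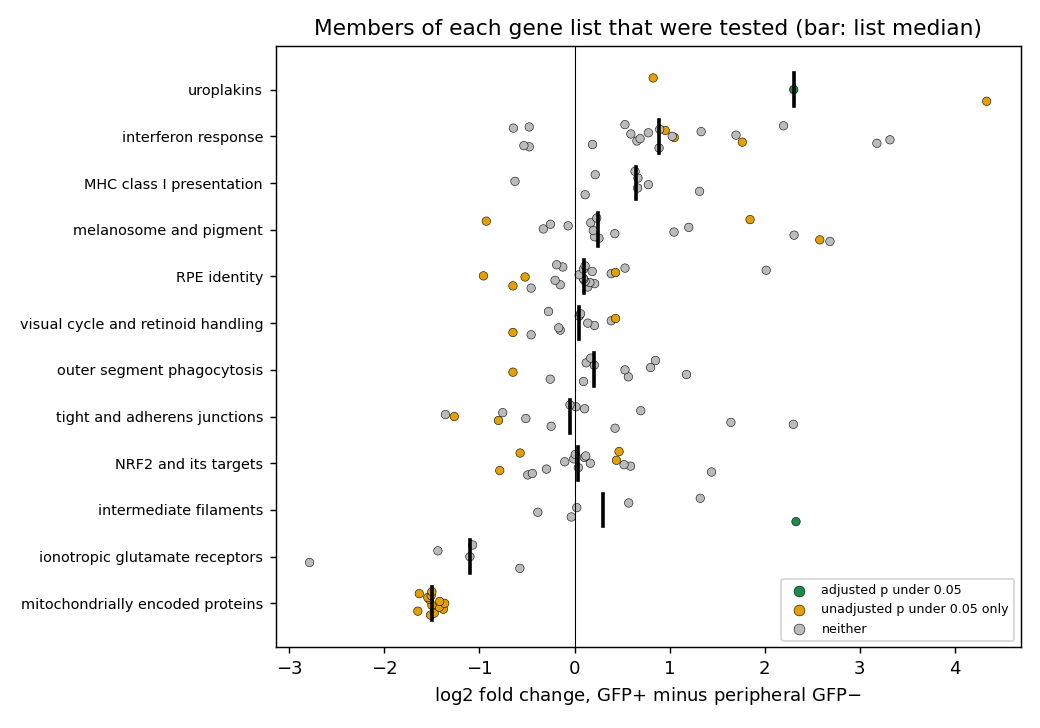
Log2 fold change of GFP+ minus peripheral GFP–-RPE, on the horizontal axis, for each tested member of 12 gene lists; points are genes coloured by the edgeR test and the black bar is the list median. Green points, the called genes, are Upk3b and Vim, and the mitochondrially encoded genes form one tight group near -1.50.

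Mitochondrially encoded transcripts took a smaller share of GFP+-RPE libraries. Genes for the 13 proteins of the mitochondrial genome, all subunits of the respiratory chain or ATP synthase, made up 3.25%, 0.710%, 8.49%, 8.64%, 17.2% and 9.45% of counts in GFP+-RPE of mice 1, 2, 3, 4, 5 and 7. In peripheral GFP–-RPE they made up 12.5%, 17.7%, 15.5%, 30.4% and 22.2% in mice 1, 2, 4, 5 and 7. The groups overlapped through mouse 5, and the GFP+ library was lower in 5 of 5 mice. Means were 7.95% ± 5.70 (SD, n = 6) and 19.7% ± 6.98 (SD, n = 5), a difference of -11.7 percentage points (two-sided exact permutation p = 0.0130, adjusted p = 0.0346 over 4 library measures). Within the first and second runs of animal numbers the difference was -10.9 and -11.0 points, each with an exact permutation p = 0.2 (the smallest that the numbers of libraries allow is 0.2 and 0.1), and within mice it was -11.8 points (exact sign-flip permutation p = 0.0625, the smallest that 5 mice allow). Gene by gene, 13 of 13 were lower at an unadjusted p under 0.05 with edgeR and 0 were called by edgeR or by DESeq2 without the block, with a median log2 fold change of -1.50. DESeq2 with the mouse as a block called 13 of 13 lower (adjusted p from 0.00278 to 0.0194). The ranges of mt-Nd5 did not overlap (223 to 6544 CPM against 6945 to 12549 CPM), and mt-Nd3 had 62.8 to 1519 CPM against 1122 to 3802 CPM. The called genes were the same 5 with mitochondrially encoded genes removed. Without the peripheral GFP– libraries of mice 5 and 7, which had the highest shares, the difference was -7.29 points (exact permutation p = 0.0714).

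**Figure D5:**
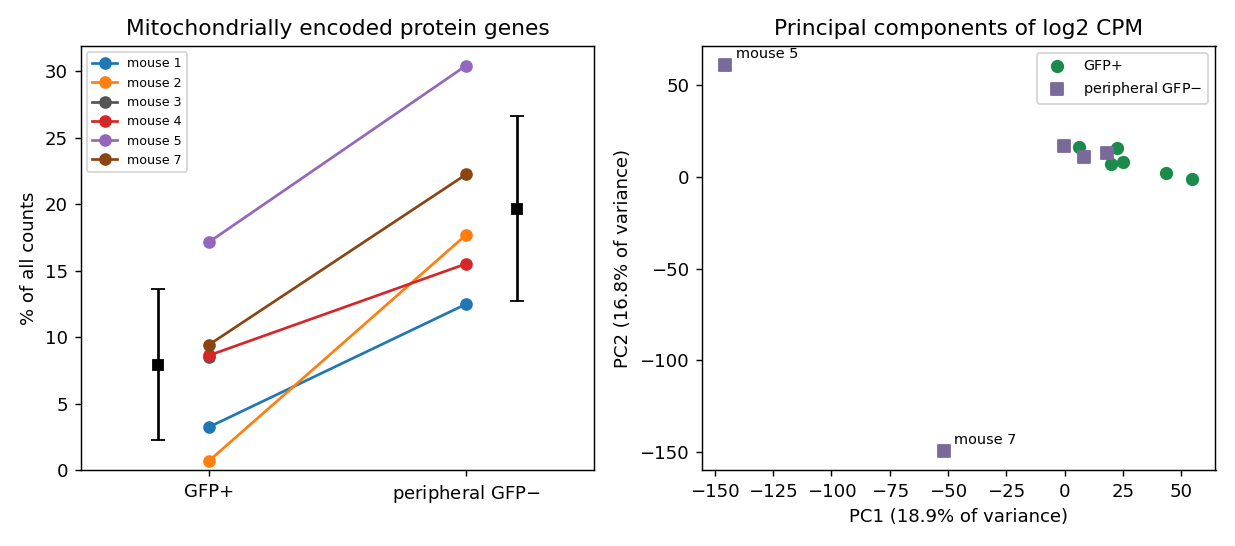
Left, the percentage of all counts from the 13 mitochondrially encoded protein genes (vertical axis) per library, with lines joining libraries of one mouse and squares and bars giving the mean and SD. Right, the first and second principal components of log2 CPM, in which the peripheral GFP– libraries of mice 5 and 7 lie away from the other 9.

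Markers of other cells were measured in every library. The summed level of 17 photoreceptor markers was 102 to 201 CPM in GFP+-RPE and 99.3 to 185 CPM in peripheral GFP–-RPE. Rom1 gave much of it (68.3 to 138 CPM against 43.4 to 159 CPM). The GFP+ library of mouse 3 held the most of several rod genes, with 1284 counts of Pdc (63.6 CPM), 236 of Gnat1, 261 of Nrl and 186 of Sag. Of these Nrl and Sag had more than 3 counts in no other library. The part of these transcripts in the results was not tested, and without that library 7 genes were called higher, the 5 called genes among them. The summed level of 11 endothelial markers was 9.24 to 30.1 CPM against 1.40 to 26.9 CPM, and that of 8 stromal markers 0.426 to 8.87 CPM against 0.717 to 11.7 CPM. For 7 melanocyte markers, of which the RPE also expresses Mlana and Dct, it was 645 to 1336 CPM against 357 to 1028 CPM. Dct gave most of it (529 to 1144 CPM against 258 to 947 CPM). Sox10 was present in all 11 libraries, at 50.4 to 82.4 CPM against 51.9 to 107 CPM, whereas Ednrb had at most 7 counts in any library. The source of Sox10 was not tested. For 9 ciliary and iris markers the sum was 1542 to 2622 CPM against 1026 to 2969 CPM. Nearly all of it was Car14 (1542 to 2622 CPM against 1026 to 2969 CPM), and no other marker of that list exceeded 1.15 CPM. The 10 Müller glia markers summed to 9793 to 16918 CPM against 5526 to 15024 CPM, most of it from Clu, Rlbp1 and Glul, which the RPE expresses, and from Vim. Aqp4, Kcnj10, Sox2 and Gfap had at most 1, 5, 0 and 0 counts in any library. Dkk3 was present, with 718, 196, 338, 35, 2 and 0 counts in GFP+-RPE of mice 1, 2, 3, 4, 5 and 7 and 88, 0, 0, 5 and 160 in peripheral GFP–-RPE of mice 1, 2, 4, 5 and 7. Slc1a3 had at most 96 counts in peripheral GFP–-RPE and 0 counts in all 6 GFP+ libraries. The 10 macrophage and microglia markers summed to 43.8 to 122 CPM against 117 to 152 CPM. That sum was nearly all Csf1r (41.3 to 122 CPM against 108 to 151 CPM, log2 fold change -1.01, edgeR adjusted p = 0.562, or 0.039 with DESeq2 and the mouse as a block), while C1qa, C1qb, C1qc, Aif1, Tyrobp and Cd74 were at 0 in all 11 libraries.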

How the data were processed

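Libraries of hand-picked RPE cells were made with the SMART-Seq mRNA LP kit, which amplifies polyA RNA, and no molecular identifiers are described, so counts are of reads, not molecules. Per the labels, reads were trimmed with fastp and quantified with Salmon against GRCm38.p6, and the authors deposited estimated counts per gene symbol as whole numbers. Versions, annotation and use of strand are not given in the sources used here. Each sample was assigned to its group by its label.

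Counts of the 11 libraries were fitted with edgeR 4.0.16 (quasi-likelihood, TMM, default filter on low counts) and called at an adjusted p under 0.05 (Benjamini-Hochberg). CPM are scaled by TMM. DESeq2 1.42.0 (R 4.3.3) was an alternative, with other normalizations, filters, covariates and each library left out. Permutation tests were exact and two-sided (SciPy 1.17.1). Positions are from GENCODE M21, in which 21853 of 22253 symbols (98.2%) were found. Named genes were the called genes, fixed names, the 10 of smallest p in each direction with ranges apart, a mean count of at least 10 and the same direction in all 5 mice, and members of lists. The groups, members and lists were chosen with earlier results of these data known. Libraries of one mouse share an animal, which pairs them by design. For mouse 1 they share a pair of animal numbers, and which animal gave which cells is not stated. Correlations of deviations from the group means were -0.0203 to 0.0973 in the 5 pairs. Intervals between libraries are the only error measured.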

Additional observations from a re-analysis of the deposited data

Results flagged for a closer look

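Values of part of the genes named in the text (as log2 of CPM + 1) and of 4 library measures were examined within each group. The search was for a single library far from the others. Not every named gene was included. The rod genes Pdc and Gnat1, highest in the GFP+ library of mouse 3, were among those left out. Of 131 such groups 7 held one, which is 5.34%, and chance gives about 1 in 20. Serpine3 was at 0.311 CPM in the peripheral GFP– library of mouse 1 and at 0 in the other 4. Tubb4a was at 9.58 CPM in the peripheral GFP– library of mouse 4, against at most 0.683 in the others. Col5a2 was at 0.198 CPM in the GFP+ library of mouse 3 and at 0 in the other 5. Tmcc3 was at 19.6 CPM in the peripheral GFP– library of mouse 2, against 44.7 to 55.4. Rrh was at 370 CPM in the peripheral GFP– library of mouse 5, against 646 to 794. Upk3bl was at 38.5 CPM in the GFP+ library of mouse 5, against 95.5 to 155. The mitochondrial gene mt-Nd5 was at 223 CPM in the GFP+ library of mouse 2, against 1959 to 6544, and the same library had the lowest mitochondrial share of the 11, at 0.710%.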

How the results depend on the processing

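The number of genes called depended most on the program. DESeq2 called 74 genes higher and 66 lower, all 5 edgeR calls among them, and for 57 of these 140 one group had at most 3 counts in every library. With the mouse as a replicate block, edgeR called 0 genes of 9922 tested (329 higher and 311 lower at an unadjusted p under 0.05). DESeq2 with that block called 248 higher and 275 lower of 11621 tested. The fit with all 3 groups called 0 genes of 10660 tested (120 higher and 160 lower at an unadjusted p under 0.05). Central counts of Htr3a, Upk3b and Bcan in that fit ran from 0 to 534, 401 and 208, those of Vim from 172 to 1429 and those of Aplp1 from 2 to 1579. Leaving out each library in turn gave 4 to 7 genes higher and 0 lower. Htr3a, Vim, Upk3b and Aplp1 stayed called in 11 of 11 such fits (adjusted p 0.000653 to 0.0498). Bcan stayed called in 4 of 11 (0.0107 to 0.121) and lost its call without the GFP+ library of mouse 1, 2, 5 or 7 or the peripheral GFP– library of mouse 1, 2 or 7. Without the peripheral GFP– libraries of mice 5 and 7 together, an alternative chosen after seeing the data, 1 gene was called. The cause of these changes was not tested. Other normalizations, filters, run as a covariate, thinning and removal of mitochondrial genes gave 5 or 6 genes higher and 0 lower, with all 5 called genes among them.

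The difference in mitochondrial share was -11.8 points within mice and -10.9 and -11.0 points within the first and second run. These 3 tests could not pass the threshold whatever the data. The smallest p they allow is 0.0625 by sign flips within mice, and 0.2 and 0.1 by permutation within the runs. Without the peripheral GFP– libraries of mice 5 and 7 it was -7.29 points, not past the threshold. Leaving out 1 library gave -13.6 to -9.04 points, all past it. Of the 62 genes recomputed under every alternative, 3 changed sign. These were Trpm1 without the GFP+ library of mouse 3 (-0.0727, with a range of -0.0727 to 0.772 over single libraries left out), Wfikkn2 without that of mouse 5 (-0.0114, range -0.0114 to 0.763) and Bmp4 without the peripheral GFP– libraries of mice 5 and 7 (0.00976). The median log2 fold change was -0.24 over all genes that DESeq2 fitted, which had no filter on low counts before the fit. It was -0.19 in edgeR with no filter on low counts, and -0.000409 in edgeR with the default filter and the size factors of DESeq2.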
